A study of Mus musculus with 9 samples.

Results

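Genes of the major histocompatibility complex (MHC) machinery were followed through bulk RNA sequencing of neutrophils sorted from mouse lung. They were found by matching their symbols to the gene column of the deposited tables, and all 10 members were present among 22064 listed genes, of which 18325 had values and 14108 entered the test. The members are the class II chains H2-Aa, H2-Ab1 and H2-Eb1, the class II loading and regulatory genes H2-DMa, H2-DMb1, Cd74 and Ciita, and the class I genes H2-K1, H2-D1 and B2m.

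The study compared neutrophil subsets of normal lung and of lung carrying breast cancer metastases. The 9 libraries formed 3 groups of 3, all from female BALB/c mice that were 6 to 8 weeks old when purchased. The Ly6Ghigh and Ly6Glow groups were CD45+Ly6Ghigh and CD45+Ly6Glow cells from lungs at the macrometastatic stage, which the study places at week 4 or later after 4T1-LM3 cells were injected into the mammary fat pad. 4T1-LM3 is a lung-tropic line selected in vivo from the 4T1 mouse mammary carcinoma, so the tumor model is 1 selected line. The normal lung group (NL) was CD45+Ly6Ghigh cells from mice whose labels name no tumor, and no Ly6Glow group of normal lung was analysed here. The sorted cells are described by CD45 and Ly6g, the study's protocol for lung neutrophils also stained CD11b, and the labels do not say how many mice made up a library. P-values therefore speak of variation among libraries, and how that compares with variation among mice is unknown.

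MHC class I molecules consist of a polymorphic heavy chain, such as the products of H2-K1 and H2-D1, bound to beta-2-microglobulin, the product of B2m. They carry peptides from the cell's interior to CD8+ T cells and are made by nearly all nucleated cells. Class II molecules are pairs of an alpha and a beta chain that show peptides of ingested material to CD4+ T cells, and they are typical of dendritic cells, B cells and macrophages. Resting neutrophils make little class II. The invariant chain Cd74 escorts class II to the endosome, H2-DM exchanges the last fragment of Cd74 for a peptide, and Ciita switches the class II genes on from the X and Y boxes of their promoters.

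Promoter stretches of class II and class I members are shown first, since the values below differ between the classes. The RefSeq promoter table (GRCm38.p6, the assembly behind the mm10 build named by the labels) held 7 of the 10 members, each as 250 bases before and 50 bases after a transcription start. H2-Ab1, Cd74 and Ciita had no entry. In the 3 class II promoters below, capitals mark the letters GNAAC of an X box and TGATTGG of a Y box, and the gap between them was 26 bases in H2-Aa, 25 in H2-Eb1 and 26 in H2-DMb1.
H2-Aa, chr17:34287847-34287924, minus strand: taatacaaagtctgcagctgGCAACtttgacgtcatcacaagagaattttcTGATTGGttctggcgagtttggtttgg
H2-Eb1, chr17:34305756-34305832, plus strand: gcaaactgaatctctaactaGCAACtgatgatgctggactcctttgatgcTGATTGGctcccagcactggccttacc
H2-DMb1, chr17:34153077-34153154, plus strand: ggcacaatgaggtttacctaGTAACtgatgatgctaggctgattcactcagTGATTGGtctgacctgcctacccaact

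In the class I heavy chain promoters, capitals mark GGGNATTCC, an NF-kB core, and GTTTCNNTT, an interferon-type element, which lie 11 bases apart in both genes. In B2m the capitals mark GAAANNGAA, the core of an interferon-stimulated response element.
H2-K1, chr17:34000410-34000478, minus strand: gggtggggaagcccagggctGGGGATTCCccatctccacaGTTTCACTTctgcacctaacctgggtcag
H2-D1, chr17:35262903-35262971, plus strand: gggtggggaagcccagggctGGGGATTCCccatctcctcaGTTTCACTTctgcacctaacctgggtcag
B2m, chr2:122147528-122147576, plus strand: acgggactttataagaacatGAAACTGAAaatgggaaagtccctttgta

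Searched on both strands of 32851 promoters of 300 bases, GGGNATTCC was found in 0.776%, GAAANNGAA in 8.56%, the longer Y box core CTGATTGG in 4.10%, its short form ATTGG in 37.4% and the X box core AGCAAC in 14.8%. H2-Aa and H2-Eb1 held CTGATTGG, H2-Eb1 held AGCAAC, and the promoters of H2-K1 and H2-D1 held CTGATTGG on the opposite strand (ATTGG lies within CTGATTGG). The forms GNAAC (84.8% of promoters), TGATTGG (7.82%) and GTTTCNNTT (5.77%) were chosen after the sequences had been read, and GNAAC placed 25 or 26 bases before TGATTGG was found in 0.0548%. The 2 promoter entries of H2-DMa held neither TGATTGG nor that pair, and 1 of them held ATTGG. These matches describe letters in the C57BL/6J reference and not binding in the BALB/c cells that were sequenced.

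The libraries held 15267177 to 17841807 estimated counts each. The 12 neutrophil marker genes summed to 98224 to 100450 CPM (counts scaled to library size) in the Ly6Ghigh libraries and 81850 to 83602 in the Ly6Glow libraries, but to 22436 to 22629 in the NL libraries, while lung epithelial and endothelial markers were highest in NL. Ly6g RNA, whose protein defined the gates, did not pass the test between the Ly6Glow and Ly6Ghigh groups (log2 fold change 0.08 ± 0.03 SE, adjusted p = 0.05772). Among the NL libraries replicate 2 stood furthest from its group, and it had the lowest CPM of all 10 members in that group. Each member passed or failed the test in the same way without that library. In bulk samples, fewer cells that express a gene and less RNA per cell cannot be told apart.

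Values are given as CPM scaled by the trimmed mean of M values (TMM) and compared by edgeR's quasi-likelihood test. A gene passed the test at an adjusted p under 0.05 and an absolute log2 fold change of at least 0.58. Between the Ly6Glow and Ly6Ghigh groups 0 members passed as higher and 5 as lower, where 9.29% and 15.9% of all tested genes passed in those directions. Between Ly6Ghigh and NL 0 members were higher and 8 lower (26.3% and 36.6% of all tested genes), and between Ly6Glow and NL 0 were higher and 7 lower (28.7% and 40.8%). The CPM ranges of the compared groups were separate for all 10 members in all 3 comparisons, against 62.1%, 85.2% and 86.8% of all tested genes in the same order. The median log2 fold change of the members was -0.50, -1.17 and -1.77, and that of all tested genes -0.04, -0.09 and -0.16. The comparisons share libraries pairwise and are not independent of each other.

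**Figure D1:**
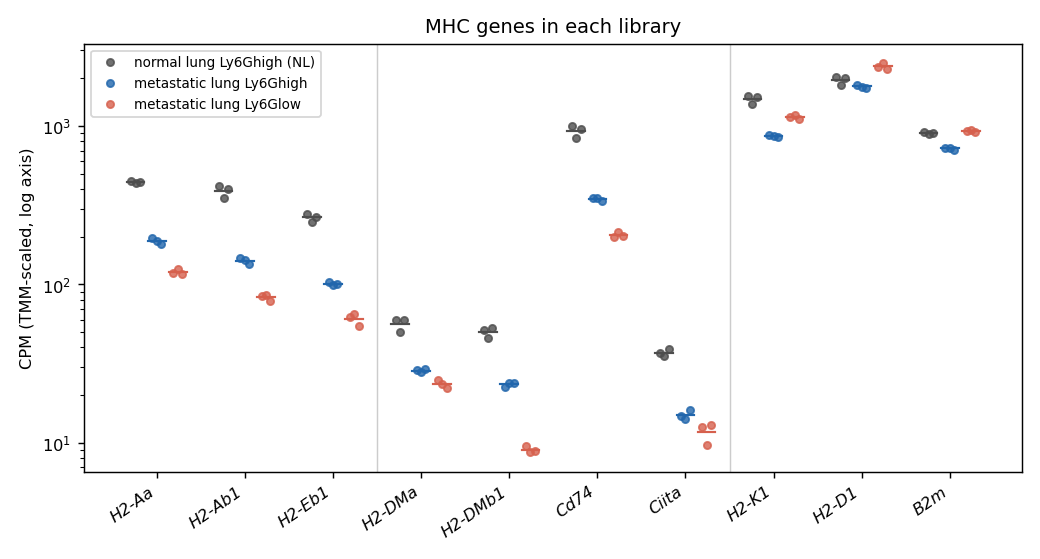
CPM of the 10 MHC genes in each of the 9 libraries on a log axis, with 1 point per library and a bar at the group mean. Every class II gene descends from NL through Ly6Ghigh to Ly6Glow, whereas the class I genes are lowest in Ly6Ghigh.

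RNA of the class II chains was lower in the libraries of metastatic lung than in those of NL, and lower in Ly6Glow than in Ly6Ghigh. Their summed CPM was 1037 to 1154 in NL, 415 to 444 in Ly6Ghigh and 249 to 277 in Ly6Glow, so that the mean sum of Ly6Ghigh was 39.0% and that of Ly6Glow 23.96% of NL. H2-Aa encodes the alpha chain of I-A and lies at chr17:34282744-34287823. It measured 453, 438 and 445 CPM in the NL libraries, 195, 188 and 180 in the Ly6Ghigh libraries and 118, 126 and 117 in the Ly6Glow libraries. All NL values were above all Ly6Ghigh values, and these above all Ly6Glow values. H2-Aa fell by 1.25 ± 0.04 (SE) on the log2 scale from NL to Ly6Ghigh (adjusted p = 2.7e-18) and by 0.64 ± 0.04 from Ly6Ghigh to Ly6Glow (adjusted p = 9.5e-12). The second difference lay near the fold threshold, and with DESeq2's size factors it was -0.58, just inside the threshold, and no longer passed.

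H2-Ab1, the I-A beta chain (chr17:34263227-34269418), followed the same order. Its NL libraries held 421, 349 and 401 CPM, its Ly6Ghigh libraries 146, 142 and 134, and its Ly6Glow libraries 84.4, 86.1 and 78.1. The spread within NL came from replicate 2, and no group overlapped another. The log2 fold change was -1.47 ± 0.05 for Ly6Ghigh over NL (adjusted p = 1.3e-16) and -0.77 ± 0.06 for Ly6Glow over Ly6Ghigh (adjusted p = 5.4e-10).

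H2-Eb1, the I-E beta chain (chr17:34305867-34316674), had the lowest FPKM of the chains in every group. It held 279, 249 and 266 CPM in NL, 103, 98.8 and 101 in Ly6Ghigh, and 62.4, 65.5 and 54.3 in Ly6Glow. Its lowest NL library was above its highest Ly6Ghigh library, and the Ly6Ghigh libraries were nearly level with each other. The log2 fold change was -1.39 ± 0.05 for Ly6Ghigh over NL (adjusted p = 8.1e-17) and -0.73 ± 0.06 for Ly6Glow over Ly6Ghigh (adjusted p = 4.6e-10). From NL to Ly6Glow, H2-Aa, H2-Ab1 and H2-Eb1 fell by 1.89, 2.24 and 2.13 on the log2 scale.

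Cd74, the invariant chain, had the highest FPKM of the class II genes in every group and fell alongside the chains. The NL libraries held 1003, 843 and 957 CPM, the Ly6Ghigh libraries 353, 352 and 337, and the Ly6Glow libraries 200, 216 and 201. Again the groups stood in separate ranges. The log2 fold change was -1.43 ± 0.05 for Ly6Ghigh over NL (adjusted p = 2.4e-17), -0.76 ± 0.05 for Ly6Glow over Ly6Ghigh (adjusted p = 2.7e-11) and -2.18 ± 0.05 for Ly6Glow over NL (adjusted p = 2.9e-20).

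The H2-DM chains, which load peptides onto class II, differed from each other between the metastatic subsets on counts. H2-DMb1 (chr17:34153191-34160229) held 51.6, 45.8 and 52.8 CPM in NL, 22.5, 24.03 and 23.96 in Ly6Ghigh and 9.50, 8.73 and 8.92 in Ly6Glow. It had the largest difference of any member between Ly6Glow and Ly6Ghigh, where it fell by 1.38 ± 0.09 on the log2 scale (adjusted p = 1.7e-11), and between Ly6Ghigh and NL it fell by 1.09 ± 0.06 (adjusted p = 3.3e-13). H2-DMa (chr17:34119693-34139101) held 59.8, 50.2 and 59.6 CPM in NL, 28.8, 27.9 and 29.1 in Ly6Ghigh, and 24.8, 23.5 and 22.3 in Ly6Glow. It fell by 0.98 ± 0.07 from NL to Ly6Ghigh (adjusted p = 5.0e-12). Between Ly6Glow and Ly6Ghigh its log2 fold change of -0.28 ± 0.08 on counts was under the fold threshold (adjusted p = 0.004445). That value depended on the scale. On log2(FPKM + 1) H2-DMa was -0.90 and H2-DMb1 -1.47, both beyond the fold threshold. The length behind the FPKM of H2-DMa was 2072 bases in Ly6Ghigh and 2887 in Ly6Glow. Of the 50-base stretches in the annotated transcripts of H2-DMb1, 22.7% also occur in other H2 genes, so its count is uncertain. H2-DMb2, a second DM beta gene, held 24.9 CPM in NL, 24.8 in Ly6Ghigh and 18.5 in Ly6Glow on average, and did not pass the test in any comparison.

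Ciita, the transactivator of the class II genes (chr16:10480014-10531064), had the lowest FPKM of the members in every group. It held 36.8, 35.3 and 39.3 CPM in NL, 14.8, 14.2 and 16.1 in Ly6Ghigh, and 12.6, 9.71 and 13.0 in Ly6Glow. The NL libraries were set well apart, whereas the lowest Ly6Ghigh library was 14.2 CPM and the highest Ly6Glow library 13.0 CPM. Ciita fell by 1.31 ± 0.08 on the log2 scale from NL to Ly6Ghigh (adjusted p = 5.8e-13). Between Ly6Glow and Ly6Ghigh the log2 fold change was -0.35 ± 0.10 (adjusted p = 0.005174), under the fold threshold.

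**Figure D2:**
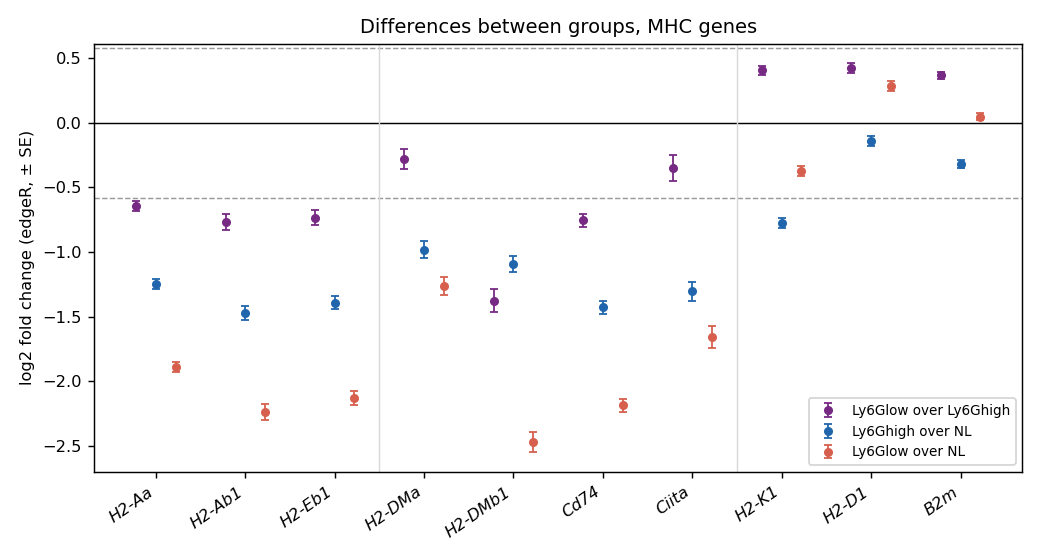
Log2 fold change of each MHC gene in the 3 comparisons, with bars of 1 SE from edgeR and dashed lines at the fold threshold of 0.58 in either direction. All 7 class II genes lie below 0 in every comparison, and the 3 class I genes lie between 0.37 and 0.42 for Ly6Glow over Ly6Ghigh.

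The class I genes did not follow the class II order. Their summed CPM was 4084 to 4505 in NL, 3313 to 3423 in Ly6Ghigh and 4311 to 4613 in Ly6Glow, so the Ly6Glow mean was 103% of NL and the Ly6Ghigh mean 77.5%. H2-K1 (chr17:33996012-34000619), the K heavy chain, held 1552, 1373 and 1521 CPM in NL, 878, 861 and 854 in Ly6Ghigh and 1142, 1177 and 1109 in Ly6Glow. It fell by 0.78 ± 0.04 on the log2 scale from NL to Ly6Ghigh (adjusted p = 2.2e-14) and was the only class I member to pass the test on counts. Between Ly6Glow and Ly6Ghigh its log2 fold change was 0.40 ± 0.04 (adjusted p = 8.1e-09), larger than the spread between libraries but under the fold threshold. Ly6Glow against NL gave -0.38 ± 0.04 (adjusted p = 6.0e-09), also under it.

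H2-D1 (chr17:35263094-35267497), the D heavy chain, had the highest FPKM of the members in every group. It held 2035, 1824 and 2019 CPM in NL, 1815, 1775 and 1749 in Ly6Ghigh, and 2370, 2486 and 2284 in Ly6Glow. The gap between the lowest NL and the highest Ly6Ghigh library was narrow, and the Ly6Glow libraries were the highest. Its log2 fold change was -0.14 ± 0.04 for Ly6Ghigh over NL (adjusted p = 0.002004), 0.42 ± 0.04 for Ly6Glow over Ly6Ghigh (adjusted p = 4.1e-09) and 0.28 ± 0.04 for Ly6Glow over NL (adjusted p = 5.8e-07), all under the fold threshold.

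B2m, the light chain shared by class I molecules (chr2:122147687-122153082), lay between. It held 917, 886 and 902 CPM in NL, 730, 729 and 710 in Ly6Ghigh, and 926, 950 and 918 in Ly6Glow. The highest NL and the lowest Ly6Glow library were neighbours in that order, and Ly6Glow over NL gave a log2 fold change of 0.05 ± 0.03 (adjusted p = 0.1375). Ly6Glow over Ly6Ghigh gave 0.37 ± 0.03 (adjusted p = 6.2e-10) and Ly6Ghigh over NL -0.32 ± 0.03 (adjusted p = 1.4e-09), both under the fold threshold.

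Class I against NL moved with the scale. On the deposited FPKM values, tested as log2(FPKM + 1) with limma, the median of all genes shifted from -0.09 to -0.33 for Ly6Ghigh over NL and from -0.16 to -0.56 for Ly6Glow over NL. H2-D1 and B2m then turned from 0.28 and 0.05 to -0.42 and -0.65 for Ly6Glow over NL, and H2-K1, below 0 on both scales, moved from -0.38 to -1.23, so that B2m (limma adjusted p = 9.7e-11) and H2-K1 (adjusted p = 2.9e-11) passed the test as lower. For Ly6Ghigh over NL all 3 were below 0 on both scales, and by FPKM H2-D1 at -0.60 (limma adjusted p = 2.3e-08) and B2m at -0.78 (adjusted p = 2.4e-11) passed as well. Relative to the median of all genes in Ly6Glow over NL, H2-D1 stood at 0.44 by TMM and 0.15 by FPKM, B2m at 0.20 and -0.09, and H2-K1 at -0.22 and -0.66. Between Ly6Glow and Ly6Ghigh the class I genes stayed above 0 on both scales, at 0.13, 0.18 and 0.13 by FPKM for H2-K1, H2-D1 and B2m. The 7 class II genes stayed below 0 on both scales in all 3 comparisons.

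BALB/c mice carry the d haplotype of the H2 region, whereas the mm10 reference comes from C57BL/6J with the b haplotype. Reads of the polymorphic H2 genes were thus matched to another haplotype, and H2-L, a class I gene of BALB/c, was among the listed symbols not found in the tables. Of the 50-base stretches in the annotated transcripts, 9.63% of those of H2-K1 and 10.9% of those of H2-D1 also occur in another H2 gene. These stretches were counted within the reference. How many reads were lost or misplaced by matching the d haplotype to the b haplotype was not measured, and this limit applies to all 9 libraries.

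Ratios within a library do not depend on the scaling between libraries, so levels of different genes were compared as FPKM, which are per length. The ratio of H2-Aa to H2-K1 was 0.376 ± 0.021 (SD, n = 3) in NL, 0.293 ± 0.0075 in Ly6Ghigh and 0.146 ± 0.0026 in Ly6Glow. H2-Aa was thus lower relative to H2-K1 in Ly6Glow than in Ly6Ghigh, and the ranges did not overlap. An exact permutation test of 3 against 3 libraries cannot go below p = 0.1.

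Among the class I genes the ratio of H2-D1 to H2-K1 was 1.06 ± 0.011 in NL, 1.78 ± 0.0096 in Ly6Ghigh and 1.85 ± 0.019 in Ly6Glow. The ratio of B2m to H2-K1 was 1.01 ± 0.055 in NL, 1.51 ± 0.022 in Ly6Ghigh and 1.51 ± 0.030 in Ly6Glow. Both ratios were higher in either metastatic subset than in NL, and that of B2m overlapped between the subsets. The length behind the FPKM of H2-K1 differed by group as well, at 1346, 1457 and 1498 bases in NL, Ly6Ghigh and Ly6Glow. Ratios to H2-K1 depend in part on that length. On counts H2-K1 and H2-D1 changed by -0.78 and -0.14 on the log2 scale in Ly6Ghigh over NL. In Ly6Glow over Ly6Ghigh they changed by 0.40 and 0.42, close to each other. Within class II the ratios of H2-Ab1 and Cd74 to H2-Aa were highest in NL and lowest in Ly6Glow. H2-Ab1 to H2-Aa was 0.830 ± 0.066 in NL, 0.711 ± 0.0057 in Ly6Ghigh and 0.653 ± 0.021 in Ly6Glow. Cd74 to H2-Aa was 1.86 ± 0.13, 1.64 ± 0.027 and 1.53 ± 0.016 in the same order. H2-DMb1 to H2-Aa was 0.0991 ± 0.0064, 0.111 ± 0.0079 and 0.0665 ± 0.0047, lowest in Ly6Glow and overlapping between NL and Ly6Ghigh. For H2-DMa the ratio was 0.0774 ± 0.0068, 0.0795 ± 0.0016 and 0.0733 ± 0.0023. For Ciita it was 0.0137 ± 0.00071, 0.0132 ± 0.0015 and 0.0154 ± 0.0037. In both the NL range overlapped those of the other groups. The length behind the FPKM of H2-DMa differed by group, at 1770, 2072 and 2887 bases, so its level ratio does not hold on counts. There its log2 fold change was -0.28 and that of H2-Aa -0.64 in Ly6Glow over Ly6Ghigh. In Ly6Ghigh over NL they were -0.98 and -1.25.

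**Figure D3:**
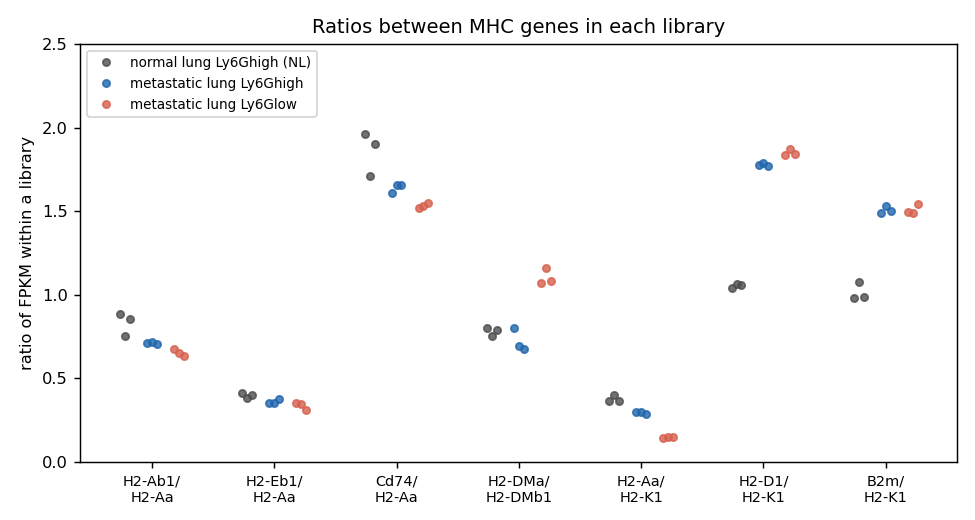
Ratio of the FPKM values of pairs of MHC genes within each library, with 1 point per library. H2-Aa relative to H2-K1 is lowest in the Ly6Glow libraries, and H2-D1 relative to H2-K1 is near 1.06 in NL and 1.77 to 1.87 in the metastatic subsets.

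The other genes of the class II pathway were split. Of 15 tested, 0 rose and 4 fell in Ly6Glow over Ly6Ghigh, 3 rose and 5 fell in Ly6Ghigh over NL, and 4 rose and 7 fell in Ly6Glow over NL, with medians of -0.25, -0.32 and -0.43. Of all tested genes, 9.29% rose and 15.9% fell in the first comparison, 26.3% and 36.6% in the second, and 28.7% and 40.8% in the third. Genes of the list that fell included some enzymes of the endosome. Ctss, the protease that trims the invariant chain, fell by 1.35 ± 0.04 from NL to Ly6Ghigh and by 0.70 ± 0.04 from Ly6Ghigh to Ly6Glow. Lgmn, another endosomal protease, fell by 1.38 and 0.63, and Ifi30, a thiol reductase, fell by 0.75 in Ly6Glow over Ly6Ghigh. Ctsl, also an endosomal protease, averaged 194 CPM in NL, 140 in Ly6Ghigh and 196 in Ly6Glow. It was higher in Ly6Glow than in Ly6Ghigh but did not pass the test there. Cd83, which stabilises class II at the surface, fell by 1.70 from NL to Ly6Ghigh and by 0.96 from Ly6Ghigh to Ly6Glow.

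The factors that bind the X and Y boxes were split. Of the subunits of the RFX complex, Rfx5 fell by 0.99 in Ly6Ghigh over NL, whereas Rfxap rose by 1.19 ± 0.11, from 5.41 to 12.4 CPM, and Rfxank by 0.68. Nfyb, a subunit of the Y box factor NF-Y, rose by 0.89 ± 0.06 in the same comparison, where the other subunits Nfya at 0.05 and Nfyc at 0.51 did not pass the test. Creb1, which binds the X2 element, rose by 0.82 ± 0.05 in Ly6Glow over NL.

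Most genes of class I processing and loading fell or did not pass the test. Of 15 tested, 1 rose and 2 fell in Ly6Glow over Ly6Ghigh, 0 rose and 7 fell in Ly6Ghigh over NL, and 0 rose and 7 fell in Ly6Glow over NL, with medians of -0.16, -0.50 and -0.52. Over all tested genes 9.29% rose and 15.9% fell in the first comparison, 26.3% and 36.6% in the second, and 28.7% and 40.8% in the third. Nlrc5, the transactivator of class I genes, averaged 121 CPM in NL, 34.2 in Ly6Ghigh and 53.8 in Ly6Glow. It had the order of H2-K1, falling by 1.82 ± 0.05 from NL to Ly6Ghigh and rising by 0.66 ± 0.05 from Ly6Ghigh to Ly6Glow. Canx and Pdia3, which fold the heavy chain in the endoplasmic reticulum, fell by 0.76 and 0.59 in Ly6Glow over Ly6Ghigh. Tapbpl, a peptide editor, fell by 1.24 in Ly6Ghigh over NL. Tap1, a peptide transporter subunit, fell by 0.76 in that comparison, and Tap2, its partner, measured 0.18 and did not pass.

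Of 20 other class I and class I-like genes, 2 rose and 1 fell in Ly6Glow over Ly6Ghigh, 0 rose and 11 fell in Ly6Ghigh over NL, and 0 rose and 8 fell in Ly6Glow over NL, with medians of 0.36, -0.69 and -0.42. Over all tested genes the shares were 9.29% and 15.9%, 26.3% and 36.6%, and 28.7% and 40.8% in the same order. H2-T24, a class Ib gene, rose by 0.63 ± 0.04 in Ly6Glow over Ly6Ghigh. Fcgrt, the neonatal Fc receptor, fell by 1.31 ± 0.09 there and by 2.73 ± 0.07 in Ly6Glow over NL. H2-Q6, of the Qa family, fell by 1.55 ± 0.04 in Ly6Ghigh over NL, and so did Cd1d1, which presents lipids, by 1.49 ± 0.09. In Ly6Glow over NL H2-M3, which presents formylated peptides, fell by 1.79 ± 0.13. Reads of the Q and T families are shared among near-identical copies, so single members are uncertain.

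Genes of interferon-gamma signalling, the pathway best known for inducing Ciita, went both ways. Of 12 tested, 3 rose and 2 fell in Ly6Glow over Ly6Ghigh, 4 rose and 3 fell in Ly6Ghigh over NL, and 5 rose and 4 fell in Ly6Glow over NL, with medians of 0.44, -0.23 and 0.26. The shares of all tested genes were 9.29% and 15.9%, 26.3% and 36.6%, and 28.7% and 40.8% in the same order. The receptor chains Ifngr1 and Ifngr2 rose by 1.65 ± 0.03 and 1.44 ± 0.04 from NL to Ly6Ghigh. Jak2, the receptor's kinase, and Irf1, a transcription factor downstream of it, rose by 0.71 and 0.68 in Ly6Glow over Ly6Ghigh. Irf8, a factor of monocytes and dendritic cells, averaged 120.0 CPM in NL, 23.9 in Ly6Ghigh and 12.3 in Ly6Glow and fell in all comparisons, by 3.28 ± 0.06 in Ly6Glow over NL. Irf4 fell by 1.02 and Socs1, a feedback inhibitor, by 0.98 in that comparison.

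Most costimulatory genes and partners of antigen presentation were higher in NL than in Ly6Ghigh. Of 7 tested, 2 rose and 0 fell in Ly6Glow over Ly6Ghigh, 0 rose and 6 fell in Ly6Ghigh over NL, and 0 rose and 5 fell in Ly6Glow over NL, with medians of 0.33, -1.68 and -1.03. The shares of all tested genes were 9.29% and 15.9%, 26.3% and 36.6%, and 28.7% and 40.8% in the same order. Cd80, a ligand of CD28, averaged 86.0 CPM in NL, 29.0 in Ly6Ghigh and 53.9 in Ly6Glow and rose by 0.89 ± 0.07 from Ly6Ghigh to Ly6Glow. Cd274, which encodes PD-L1, rose by 0.66 ± 0.04 in that comparison and fell by 1.69 ± 0.04 in Ly6Ghigh over NL. Icam1, an adhesion molecule, fell by 2.20 ± 0.04 and Cd40 by 2.11 ± 0.13 in Ly6Ghigh over NL.

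**Figure D4:**
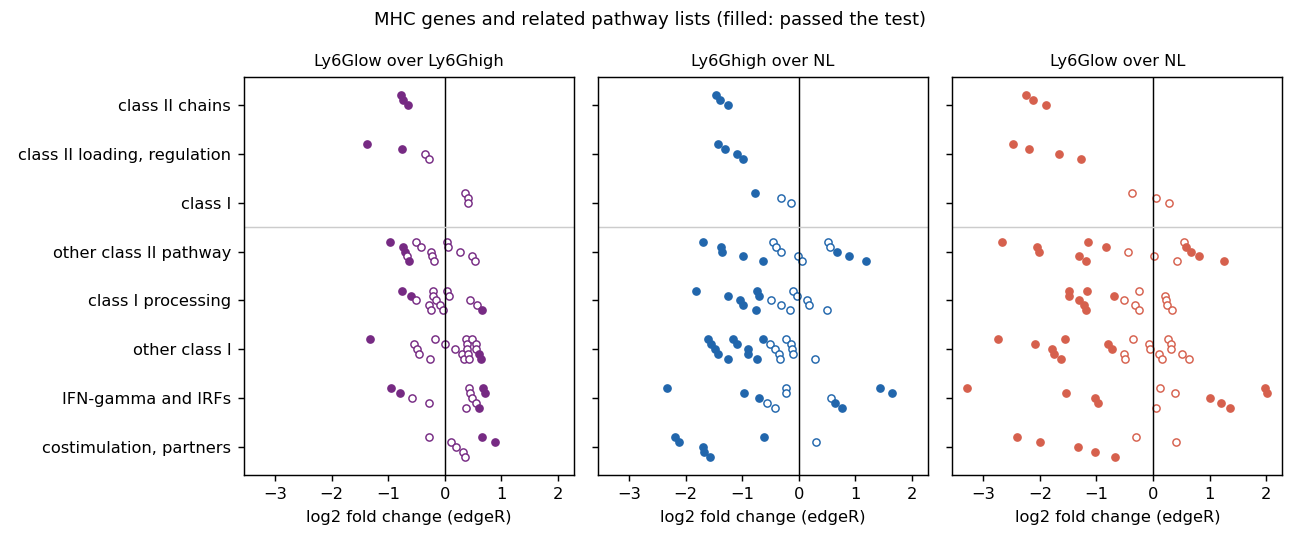
Log2 fold change of each tested gene in the 3 member lists (above the line) and 5 related lists (below it), 1 panel per comparison, with filled points for genes that passed the test. The class II members lie to the left of 0 in every panel, while the interferon-gamma list spans both sides.

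Markers of cells that make class II abundantly were set beside the class II values. The study's lung neutrophil protocol stained CD11b beside CD45 and Ly6g, whereas its RNA sequencing methods name CD45 and Ly6g only. Which other cells entered the libraries was not tested. The marker counts here and below stand beside the shares of all tested genes that fell. These were 36.6% in Ly6Ghigh over NL, 40.8% in Ly6Glow over NL and 15.9% in Ly6Glow over Ly6Ghigh. The 14 dendritic cell markers summed to 97.3 to 104 CPM in NL, 34.6 to 36.9 in Ly6Ghigh and 31.5 to 32.5 in Ly6Glow, and 11 fell in Ly6Ghigh over NL, 12 in Ly6Glow over NL and 5 in Ly6Glow over Ly6Ghigh, where 1 rose. None was at 0 in all libraries of a group, and 4 averaged under 1 CPM in Ly6Glow. Flt3, a defining receptor of these cells, averaged 3.81 CPM in NL, 2.34 in Ly6Ghigh and 1.73 in Ly6Glow. The dendritic cell sum of Ly6Glow was 89.6% of that of Ly6Ghigh, and the sum of the class II chains was 61.4%. The markers behind the first sum were uneven. Clec9a held 2.54 to 3.51 CPM in Ly6Ghigh and 3.91 to 4.88 in Ly6Glow, and Ccr7 3.19 to 3.78 and 1.79 to 2.33. The part of dendritic cells in the class II values was not tested.

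The 13 alveolar macrophage markers summed to 2280 to 2295 CPM in NL, 1670 to 1718 in Ly6Ghigh and 372 to 399 in Ly6Glow. Of these 13, 11 fell in Ly6Glow over Ly6Ghigh, 11 in Ly6Ghigh over NL and all 13 in Ly6Glow over NL, and 5 averaged under 1 CPM in Ly6Glow. Much of this sum was Chil3, a chitinase-like protein that averaged 964 CPM in NL, 1274 in Ly6Ghigh and 277 in Ly6Glow and did not pass the test between Ly6Ghigh and NL. Without Chil3, a choice made after its values were seen, the other 12 summed to 1314 to 1331 CPM in NL, 406 to 418 in Ly6Ghigh and 103 to 111 in Ly6Glow, so that the mean of Ly6Ghigh was 31.2% and that of Ly6Glow 8.00% of NL. The 14 monocyte and macrophage markers summed to 1584 to 1661, 1035 to 1066 and 901 to 914 CPM in the same order of groups, with 9 that fell and 1 that rose in Ly6Ghigh over NL and 5 that fell in Ly6Glow over Ly6Ghigh. The summed levels of both lists had the group order of the class II genes, and so did those of the dendritic cell and T and NK cell lists. The B cell sum had that order too, but single B cell markers were split between NL and Ly6Ghigh.

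B cell markers fell with class II between the metastatic subsets and were split against NL. The 11 found in the tables summed to 88.9 to 93.9 CPM in NL, 79.1 to 81.8 in Ly6Ghigh and 42.7 to 48.5 in Ly6Glow. Of the 10 tested, 9 fell in Ly6Glow over Ly6Ghigh, while 4 rose and 4 fell in Ly6Ghigh over NL. Their Ly6Glow sum was 56.1% of the Ly6Ghigh sum.

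Lung epithelial markers summed to 1656 to 1801 CPM in NL, 301 to 311 in Ly6Ghigh and 309 to 313 in Ly6Glow, and endothelial markers to 1138 to 1238, 164 to 168 and 200 to 209. Of the 12 epithelial and 10 endothelial markers, 11 and 10 fell in Ly6Ghigh over NL, and 2 and 0 fell in Ly6Glow over Ly6Ghigh. T and NK cell markers summed to 99.6 to 104 CPM in NL, 57.0 to 61.6 in Ly6Ghigh and 40.7 to 42.7 in Ly6Glow. Eosinophil markers at 110 to 118 CPM and basophil and mast cell markers at 43.1 to 45.0 CPM were highest in Ly6Ghigh. The part of these cells in the MHC values was not tested.

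**Figure D5:**
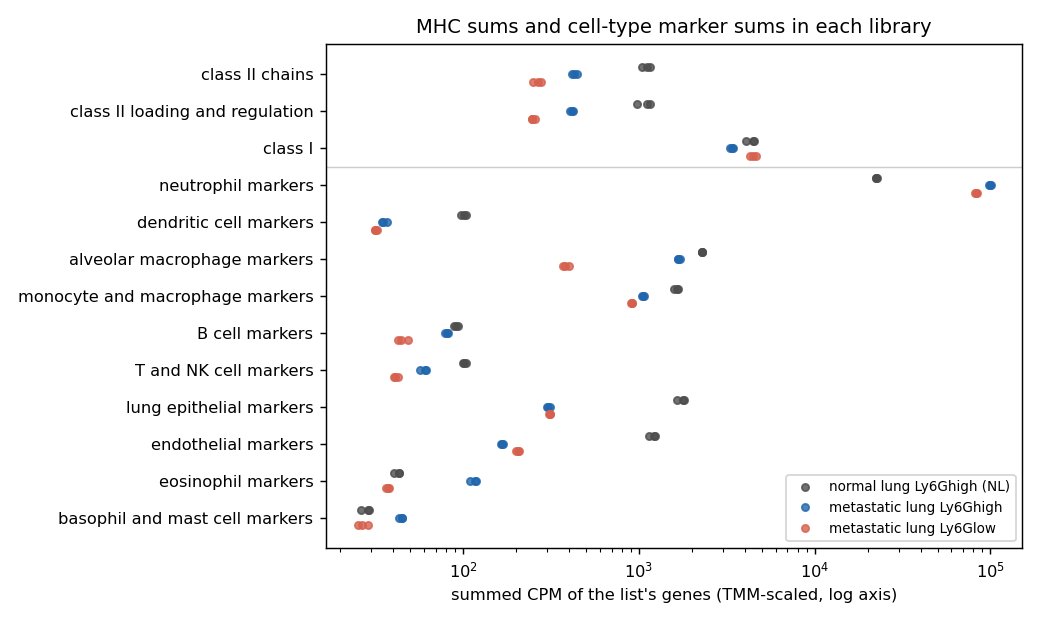
Summed CPM of the MHC lists (above the line) and of the cell-type marker lists (below it) in each library on a log axis, with 1 point per library. The neutrophil sum of NL is 22.7% of that of Ly6Ghigh, and the dendritic cell, alveolar macrophage, epithelial and endothelial sums are highest in NL.

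Of 7388 other genes with a mean of at least 10 CPM, the log2 CPM of 173 had a Pearson r of at least 0.99 with H2-Aa over the 9 libraries, which fall into 3 groups and are not independent points. The most alike were Abhd12, Capn2, Lgmn, H2-Ea-ps and Tmbim1, all at an r of 0.999 or above to 3 digits. Abhd12, a lipid hydrolase, averaged 118 CPM in NL, 40.8 in Ly6Ghigh and 22.98 in Ly6Glow. For H2-K1 20 genes reached 0.99, led by Helz2, Csrnp1, Ppp1r10, H2-Q4 and Trafd1 at 0.996 to 0.998. H2-Q4, a Qa family class I gene that may share reads with H2-K1, averaged 523 CPM in NL, 280 in Ly6Ghigh and 372 in Ly6Glow.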

How the data were processed

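The authors deposited, for each library, a table of estimated counts per gene (37.9% of the values were whole numbers within 1e-9) and a table of FPKM values (fragments scaled to transcript length and library size). Per the labels, RNA from TRIzol extracts was selected for poly(A), made into strand-specific libraries and processed with mm10. The labels' extraction text speaks of cell lines and Illumina sequencing, whereas the study's methods describe sorted neutrophils sequenced by BGI. The aligner and counter are not given in the sources used here. Groups were taken from titles and treatment labels, since the descriptions of the NL libraries name the Ly6Ghigh group without the normal lung.

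Counts were rounded, filtered with filterByExpr (14108 of 18325 genes kept, and 3739 listed genes were blank), scaled by TMM and tested with edgeR 4.0.16 (R 4.3.3) in 1 quasi-likelihood model of the 3 groups, with Benjamini-Hochberg adjustment over all tested genes. Passing required an adjusted p under 0.05 and an absolute log2 fold change of at least 0.58. The test was checked on simulated counts. Alternatives used DESeq2 1.42.0 and limma 3.58.1 on log2(FPKM + 1), among other settings. By a chi-square test on the counts of many genes, all pairs of replicates within a group differed beyond sampling noise. The chi-square per gene had a mean of 1.41 to 5.30 and a median of 0.55 to 1.28, both largest between NL replicates 1 and 2. The coefficient of variation among replicates from edgeR was 0.0346. The libraries were counted separately. Whether they came from separate mice is not in the labels, so small p-values rest on the spread among close libraries.

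The members and the lists were chosen with earlier results of these data known. Besides the members, the text names the 2 largest increases and 2 largest decreases that passed in each pathway list and comparison at 10 CPM or more, and the 5 genes most correlated with H2-Aa and with H2-K1. Other genes were named after their values were seen. Of 202 listed symbols 191 were found. Promoters and gene positions came from RefSeq (GRCm38.p6), and shared 50-base stretches from GENCODE transcripts of the same build.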

Additional observations from a re-analysis of the deposited data

How the results depend on the processing

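The counts of members that passed did not move when any 1 library was left out: 5, 8 and 7 were lower and 0 higher for Ly6Glow over Ly6Ghigh, Ly6Ghigh over NL and Ly6Glow over NL in each of 9 fits. Without a fold threshold, 3 members were higher in Ly6Glow over Ly6Ghigh and 1 in Ly6Glow over NL. With a log2 threshold of 1, 1 member was lower in Ly6Glow over Ly6Ghigh. The other 129 counts under alternatives were within 1.5 times the reported ones. B2m in Ly6Glow over NL turned to -0.14 with upper-quartile normalization and with at least 10 counts in every library, and to -0.65 with limma on FPKM at a pseudocount of 1, of 0.1 or with no filter. H2-D1 in that comparison turned to -0.42 in the same 3 limma fits. H2-Aa in Ly6Glow over Ly6Ghigh was -0.58 with DESeq2's size factors and with DESeq2. Upper-quartile normalization shifted the median of all genes to -0.28 and -0.35 against NL. The split of called genes moved too: the share that was higher in Ly6Glow over NL was 41.3% by TMM and 16.1% by limma on FPKM, and in Ly6Glow over Ly6Ghigh 36.8% and 14.4%. The causes of these changes were not tested.

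With a replicate block 5, 8 and 7 members were lower and 0 higher. The labels give only a shared number, so the libraries were treated as unpaired. The deviations of same-numbered libraries had a correlation above 0.1 in 0 of 9 pairs. Pairs with an NL library join different mice. Among such close replicates the check cannot show whether Ly6Ghigh and Ly6Glow libraries shared lungs. Since the labels do not tie libraries to mice, spread among mice was not estimated. The depth left Ciita and H2-DMb1 in Ly6Glow with 116 to 171 counts a library, so counting error limits these members most. The levels of genes of the H2 region are limited by the use of a reference of another haplotype, and direct evidence on protein at the cell surface was not analysed here.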

Other observations

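H2-Ea-ps, looked at after its values had been seen, is the I-E alpha chain gene, which the C57BL/6J reference annotates as a pseudogene and which BALB/c mice express. It held 232, 230 and 226 CPM in the NL libraries, 104, 94.7 and 97.4 in Ly6Ghigh and 61.3, 62.5 and 63.0 in Ly6Glow. It fell by 1.22 ± 0.04 on the log2 scale in Ly6Ghigh over NL (edgeR adjusted p = 7.8e-18) and by 0.66 ± 0.04 in Ly6Glow over Ly6Ghigh (adjusted p = 2.8e-11). Its FPKM was 0.626 to 0.674 of that of H2-Aa in all 9 libraries, with the groups overlapping. It was picked from the 5 genes most correlated with H2-Aa, so a steady ratio to H2-Aa follows from that choice.

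H2-DMa differed between the deposited scales by more than the shift of all genes. Its log2 fold change for Ly6Glow over Ly6Ghigh was -0.28 on counts and -0.90 on log2(FPKM + 1), where the median of all genes was -0.04 and -0.19. The transcript length implied by a library's count, FPKM and total was 1770 ± 11.1 bases (SD, n = 3) in NL, 2072 ± 128 in Ly6Ghigh and 2887 ± 86.3 in Ly6Glow. For H2-K1 it was 1346 ± 4.99, 1457 ± 6.79 and 1498 ± 10.98 bases, and for H2-Aa, H2-Ab1, H2-Eb1, H2-D1 and B2m the group means were within 0.1% of each other. Which transcripts of H2-DMa were read in each group was not tested.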
